A study of Macaca nemestrina with 15 samples.

Results

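The comparison asked how gene expression in peripheral blood mononuclear cells (PBMCs) differed between time points. The study describes these as the end of a course of islatravir (ISL) and a time after the drug was stopped. The animals, 5 female pig-tailed macaques (*Macaca nemestrina*), had been given ISL by mouth at 30 mg/kg weekly over 12 weeks. The 10 libraries compared here, of 15 in the series, are those labelled week 12 (5 animals) and week 18 (the same 5 animals). By the study's account week 12 was under treatment and week 18 followed the last dose. Both groups are therefore drug-exposed animals, and the labels name both Islatravir. The other 5 libraries are the pre-treatment samples of the same animals, labelled Control, which enter the estimate of the spread and are given as values at the side. The labels give no ages, and the series holds no animals that were left untreated over the same weeks, so stopping the drug and the passage of time cannot be told apart. The libraries were paired by the animal's identifier, and lists of 5 values below are always in the order Z15228, Z13076, Z15339, Z15303 and Z15408.

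ISL is a nucleoside analogue whose triphosphate form stops the reverse transcriptase of HIV from moving along its template. PBMCs are the blood cells with a round nucleus that are left after granulocytes and most red cells are removed: T cells, B cells, natural killer (NK) cells, monocytes and a few dendritic cells. Classical monocytes carry the lipopolysaccharide receptor CD14 and secrete lysozyme, while cytotoxic T cells and NK cells kill target cells with granules of perforin and granzymes. These granules move along microtubules and fuse with the cell surface by a machinery of Rab27, its synaptotagmin-like effectors and SNARE proteins. Dividing lymphocytes switch on genes of DNA synthesis and mitosis. In whole PBMC RNA, fewer cells of a type and less RNA per cell cannot be told apart.

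Reads were counted on 28865 features, and the week 12 and week 18 libraries held between 5610597 and 9855902 counts. Library Z15303 was the shallowest at both times. Expression is given as CPM, counts scaled to a common library total by TMM, and 12880 features, 10773 of them with a gene symbol, passed a filter on low counts and were tested. Week 18 was set against week 12 by edgeR's quasi-likelihood test, in which the animal was a block. A standard error (SE) follows each log2 fold change, and unadjusted p-values are used only to count and order genes. The dates in the library names lie 27 days (Z15228) or 28 days (the other 4 animals) apart between the 2 time points. Z15339, Z15303 and Z15408 share their dates, and Z15228 and Z13076 each have their own. From the pre-treatment library to that of week 12 they lie 56 or 57 days apart. These intervals are shorter than the week numbers imply, what the dates mark is not stated, and the study's own descriptions of the last sampling differ, so the drug-free interval behind the name week 18 is uncertain. All week 12 libraries held markers of T cells (*CD3E*, 12.0 to 92.4 CPM), monocytes (*CD14*, 345 to 653 CPM) and B cells (*MS4A1*, 19.3 to 85.6 CPM). They also held the platelet gene *PPBP* at 1518 to 4251 CPM, although platelets are not mononuclear cells.

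Few genes separated the 2 time points. None of the 12880 features (0%) had an edgeR adjusted p under 0.05. The smallest adjusted p was 0.247, for *SYTL3*, and the next was 1.00. At an unadjusted p under 0.05, 149 features (1.16%) were higher at week 18 and 130 (1.01%) were lower, 279 in all (2.17%). With no change in any gene, a share of about 0.05 would be counted at this threshold. DESeq2 with the same block called 8 features and limma-voom called 0 at an adjusted p of 0.05. A positive fold change was seen for 49.3% of the features and a negative one for 50.7%.

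Genes that moved the same way in all animals were counted next. Of the features tested, 385 (2.99%) were higher at week 18 in 5 of 5 animals and 370 (2.87%) were lower in 5 of 5, together 5.86%. Of the 32 possible sign patterns of 5 animals, 2 are uniform, or 6.25%. Agreement in all 5 animals therefore does not by itself set a gene apart. Of the uniform features, 69 of the higher and 87 of the lower ones had an unadjusted p under 0.05. Complete separation was rarer. In 7 features (0.0543%) the CPM of every week 18 library exceeded that of every week 12 library, and in 6 (0.0466%) it lay below.

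**Figure D1:**
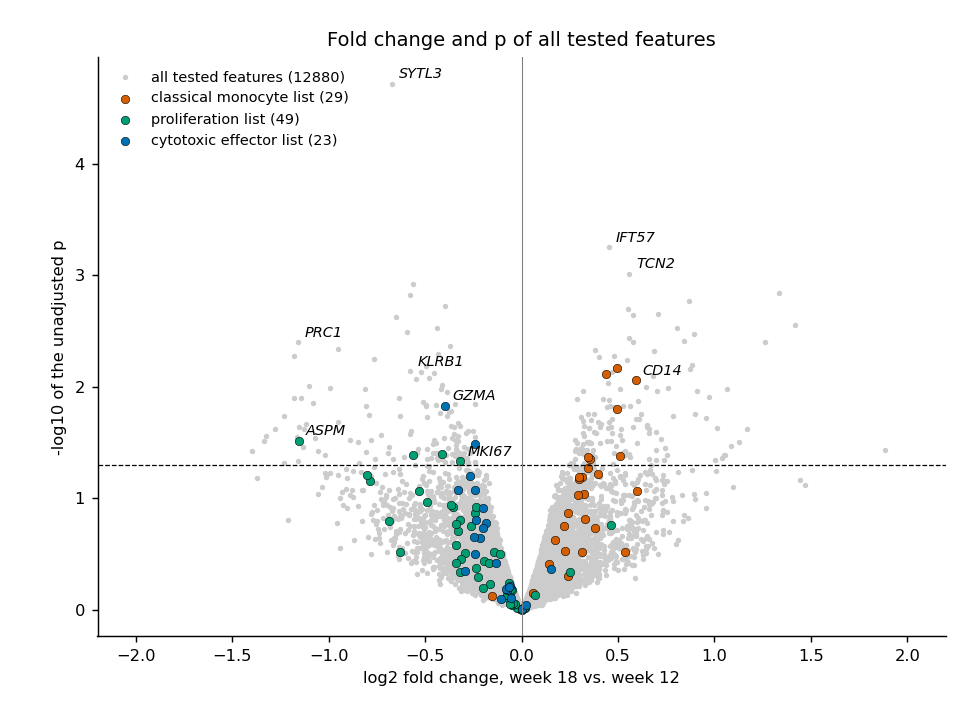
The log2 fold change of week 18 vs. week 12 (x axis) is plotted against −log10 of the unadjusted p (y axis) for the 12880 tested features in grey, with 3 gene lists in colour and the dashed line at an unadjusted p of 0.05. *SYTL3* stands highest at a log2 fold change of −0.67, the classical monocyte genes lie mostly to the right (27 of 29) and the proliferation genes mostly to the left (42 of 49).

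The gene with the smallest p was *SYTL3*, which encodes a synaptotagmin-like effector of Rab27 that links granules to the microtubule motor kinesin. Its CPM was 72.6, 108, 85.9, 52.8 and 63.6 at week 12 and 48.0, 61.3, 45.3, 45.8 and 37.3 at week 18, so it was lower in 5 of 5 animals, although the ranges of the groups overlapped. The difference was largest in Z15339 and Z13076 and smallest in Z15303. The means were 76.6 ± 21.5 and 47.5 ± 8.68 CPM (SD, n = 5). The log2 fold change was −0.67 with an SE of 0.12. Before treatment the same animals had 66.4, 66.8, 55.3, 43.9 and 45.3 CPM, below their own week 12 value in every case. The gene was picked for its difference from those week 12 values, so this comparison is not separate support. The call depended on the test. The adjusted p was 0.247 in edgeR and 0.000552 in DESeq2, and DESeq2 on the features of the edgeR filter gave 0.00139. Over the 15 alternatives the adjusted p of *SYTL3* ranged from 0.000552 to 1.00 (edgeR, DESeq2 and limma), and its log2 fold change from −0.78 to −0.61. The other 7 features called by DESeq2, among them *MCF2L2*, *MAPK10* and *NOS2*, had no more than 3 counts in any of the 10 libraries and did not pass the edgeR filter. *MAPK10*, a neuronal stress kinase, had 1 count in Z15339 and 3 in Z15408 at week 12 and none at week 18. *NOS2*, the inducible nitric oxide synthase, had 3 counts in 1 library, and *MCF2L2* had 2 counts in 1 library.

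The other 7 genes with the smallest p among those lower in 5 of 5 animals have varied roles. *APBB2*, an adaptor that binds the amyloid precursor protein, had 108, 251, 85.0, 40.0 and 115 CPM at week 12 and 54.0, 123, 71.9, 37.4 and 82.3 at week 18 (log2 fold change −0.58, SE 0.15). Z13076 and Z15228 showed the largest differences, and Z15303 was nearly level. With no filter on low counts the edgeR adjusted p of *APBB2* was 0.0401, and under the other alternatives it reached 1.00. The fit with no filter also called *LTF*, which differed in direction between animals. *BCL2L11*, which encodes the pro-apoptotic protein BIM, had 39.1, 49.3, 47.1, 40.8 and 64.3 CPM at week 12 and 26.8, 37.2, 40.8, 34.2 and 36.5 at week 18 (log2 fold change −0.44, SE 0.13). *HEG1*, a transmembrane protein of cell junctions, had 78.3, 101, 113, 76.0 and 88.0 CPM at week 12 and 55.8, 62.0, 76.7, 69.2 and 83.9 at week 18 (log2 fold change −0.40, SE 0.11). In *BCL2L11* Z15408 differed most and in *HEG1* Z13076, and the ranges of both genes overlapped. The inhibitory killer cell receptor gene *KIR3DL3*, whose reads may be shared with near-identical KIR genes and whose level is therefore uncertain, had 4.06 to 21.9 CPM at week 12 and 3.19 to 12.7 at week 18 (log2 fold change −0.60, SE 0.17). *RGS9*, a regulator of G protein signalling, ranged from 33.5 to 59.0 CPM at week 12 and from 26.4 to 44.8 at week 18 (log2 fold change −0.37, SE 0.11). *COL11A1*, a collagen chain gene, ranged from 9.59 to 32.6 CPM at week 12 and from 8.34 to 18.1 at week 18 (log2 fold change −0.57, SE 0.15). The ranges of *KIR3DL3*, *RGS9* and *COL11A1* overlapped as well. *PRC1*, which bundles microtubules in the dividing cell, had 5.19, 8.91, 7.29, 4.43 and 2.51 CPM at week 12 and 3.76, 0.732, 5.82, 1.60 and 1.33 at week 18, on 6 to 52 counts per library at week 18 (log2 fold change −1.16, SE 0.35). The changes of *PRC1* in log2 CPM ran from −0.31 in Z15339 to −3.24 in Z13076. *TXNIP*, an inhibitor of thioredoxin, was picked out after its values were seen and had 3994, 3269, 3577, 2625 and 3818 CPM at week 12 and 2163, 2792, 3251, 2176 and 2952 at week 18 (log2 fold change −0.37, SE 0.14). Its ranges of 2625 to 3994 CPM at week 12 and 2163 to 3251 at week 18 overlapped. The edgeR adjusted p of each of these genes except *SYTL3* was 1.00.

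The 8 genes with the smallest p among those higher in 5 of 5 animals also have varied roles. *TCN2*, which encodes the vitamin B12 carrier transcobalamin, had 25.6, 51.1, 29.3, 22.9 and 37.5 CPM at week 12 and 39.0, 118, 39.9, 31.6 and 40.2 at week 18 (log2 fold change 0.56, SE 0.14). Z13076 was the highest at both times. *CSF2RA*, the alpha chain of the receptor for the growth factor GM-CSF, had 48.3, 31.6, 25.4, 26.0 and 35.1 CPM at week 12 and 64.9, 68.7, 37.8, 28.4 and 47.2 at week 18 (log2 fold change 0.55, SE 0.15). *MILR1*, an inhibitory receptor of mast cells and other myeloid cells, had 25.7, 16.7, 14.02, 11.3 and 20.7 CPM at week 12 and 31.7, 39.4, 20.8, 14.5 and 24.6 at week 18 (log2 fold change 0.56, SE 0.17). *MGST1*, a microsomal glutathione transferase, had 1.48 to 5.52 CPM at week 12 and 3.58 to 6.35 at week 18 (log2 fold change 0.89, SE 0.26). In *CSF2RA* and *MILR1* the difference was largest in Z13076 (changes of 1.12 and 1.22 in log2 CPM), and the ranges of both time points overlapped.

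The remaining 4 genes of this group have other roles. The smallest p belonged to *IFT57*, a component of the transport machinery of cilia, at 68.5, 38.3, 34.9, 51.7 and 52.6 CPM at week 12 and 96.1, 65.2, 48.4, 68.3 and 58.0 at week 18 (log2 fold change 0.45, SE 0.11). The week 18 value of *IFT57* in each animal exceeded its pre-treatment value (70.9, 52.8, 35.2, 51.3 and 55.4 CPM). The gene was picked for its week 18 values, so this comparison is not separate support. *AMACR*, a peroxisomal racemase of branched fatty acids, had 5.19 to 10.9 CPM at week 12 and 9.45 to 14.01 at week 18 (log2 fold change 0.58, SE 0.16). *PTK7*, a receptor-like pseudokinase of Wnt signalling, had 2.29 to 8.41 CPM at week 12 and 4.88 to 13.7 at week 18 (log2 fold change 0.71, SE 0.20). *SYNGR1*, a protein of synaptic vesicles, had the largest fold change of the 8 but the fewest reads, 2 to 9 counts per library at week 12 and 10 to 33 at week 18 (log2 fold change 1.42, SE 0.41).

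**Figure D2:**
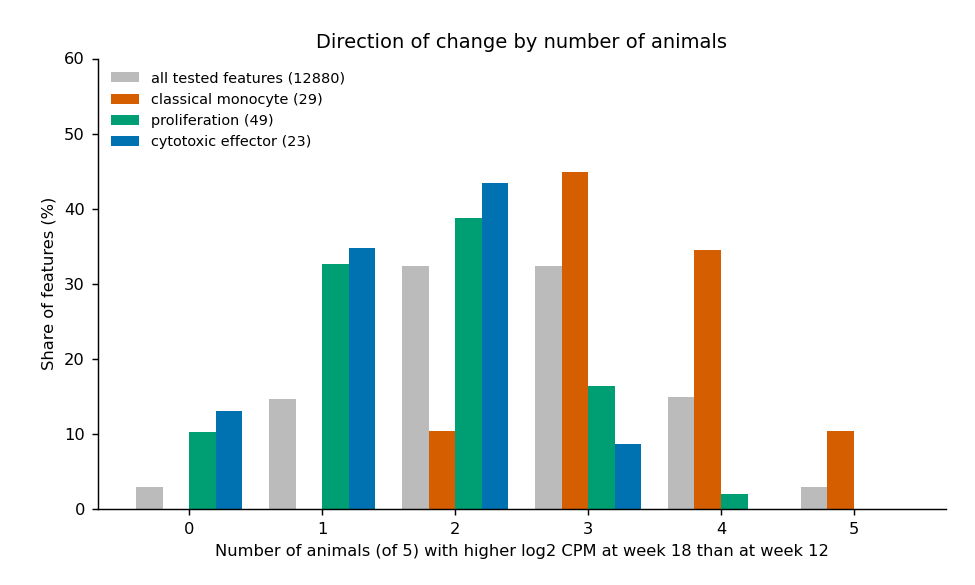
Bars give the share of features (y axis, %) by the number of animals, of 5, in which log2 CPM was higher at week 18 than at week 12 (x axis), for all tested features and 3 gene lists. Of the classical monocyte genes 10.3% were higher in all 5 animals and none in fewer than 2, while 10.2% of the proliferation genes and 13.04% of the cytotoxic effector genes were higher in none.

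Classical monocyte genes were higher at week 18 in the set of animals as a whole, but not in each animal. Of the 29 members tested (of 32 listed), 27 (93.1%) had a positive fold change, beside 49.3% of all features, and the median log2 fold change was 0.31, beside −0.0023 for all features. At an unadjusted p under 0.05, 7 were higher (24.1%, beside 1.16% of all features) and 0 lower, and 3 were higher in 5 of 5 animals (10.3%, beside 2.99%). None passed the adjusted threshold. The mean change of log2 CPM over the 29 members was 0.74, 0.92, 0.16, −0.11 and −0.13 in the 5 animals, 0.32 ± 0.49 (SD, n = 5). In Z15228 29 of the 29 genes were higher at week 18 and in Z13076 28 were, beside 19, 14 and 10 in Z15339, Z15303 and Z15408. The mean over the animals that share dates was −0.025 and over the other 2 animals 0.83. The summed level of the list was 4189 to 7053 CPM before treatment, 4485 to 6790.2 at week 12 and 4996 to 9011 at week 18, so the groups overlapped.

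Single monocyte genes showed the same split between animals. *CD14* had 552, 440.0, 345, 459 and 653 CPM at week 12 and 1104, 1177, 496, 486 and 664 at week 18 (log2 fold change 0.59, SE 0.20). It differed most in Z15228 and Z13076, by 1.00 and 1.42 in log2 CPM, and was nearly level in Z15303 and Z15408. With no filter on low counts its edgeR adjusted p was 0.0295, and under the other alternatives it reached 1.00. The fit with no filter also called *LTF*, a gene that was lower at week 18 in 2 of 5 animals. Before treatment *CD14* was at 569, 868, 237, 538 and 405 CPM. *LYZ*, which encodes lysozyme, had 1088, 884, 445, 914 and 1077 CPM at week 12 and 1621, 1852, 627, 792 and 1276 at week 18, higher in 4 of 5 animals (log2 fold change 0.44, SE 0.15). Its pre-treatment values were 1343, 1407, 459, 1009 and 1059 CPM. *CLEC12A*, an inhibitory lectin receptor of myeloid cells, had 16.6, 14.2, 11.2, 17.7 and 8.63 CPM at week 12 and 29.9, 21.5, 17.4, 16.3 and 11.8 at week 18 (log2 fold change 0.49, SE 0.16). As with *LYZ*, only Z15303 was lower at week 18. The other members at an unadjusted p under 0.05 were the scavenger receptor *CD163* (0.49), the sialic acid receptor *CD33* (0.35), the transcription factor *KLF4* (0.35) and the lipoprotein sensor *TLR2* (0.51, all log2 fold changes).

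The alarmin gene *S100A8* differed in direction between animals, with 143, 86.4, 77.2, 292 and 154 CPM at week 12 and 320.1, 244, 99.1, 205 and 119 at week 18 (log2 fold change 0.38, SE 0.27). It was higher in Z15228, Z13076 and Z15339 and lower in the other 2. Its partner *S100A9*, named after its values were seen, had 211, 86.0, 107, 315 and 238 CPM at week 12 and 419.7, 276, 135, 199.7 and 200.04 at week 18 (log2 fold change 0.31, SE 0.29). Leaving out Z13076 lowered these log2 fold changes to 0.15 for *S100A8* and 0.066 for *S100A9*, leaving out Z15228 to 0.19 and 0.15, and leaving out Z15303 raised them to 0.65 and 0.60. The growth factor receptor gene *CSF1R*, likewise, had 455, 739, 795, 694 and 861 CPM at week 12 and 627, 1089, 728, 699 and 928 at week 18 (log2 fold change 0.22, SE 0.15). Among further myeloid genes chosen after their values were seen, *FCGR2A*, an Fc receptor, had 75.6, 132, 41.4, 46.9 and 52.5 CPM at week 12 and 127, 317, 48.8, 47.4 and 55.4 at week 18 (log2 fold change 0.48, SE 0.15). The macrophage chitinase *CHIT1* had 10.4, 2.77, 4.42, 7.38 and 3.11 CPM at week 12 and 25.1, 10.1, 6.61, 6.56 and 4.54 at week 18 (log2 fold change 0.84, SE 0.25). The lysosomal gene *GPNMB* (0.64) and the transcription factor gene *MITF* (0.70) were higher in 5 of 5 animals on the log2 scale, and the aminopeptidase *ANPEP* (0.87) in 4 of 5.

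The monocyte result rested on Z15228 and Z13076. Without Z15228 the median of the 29 genes was 0.21 and without Z13076 it was 0.13, with 3 members at an unadjusted p under 0.05 in each case. Without Z15303 there were 11 such members and without Z15408 there were 12. All features at this threshold numbered 205 of 12854 without Z15228 and 237 of 12927 without Z13076. They numbered 371 of 12878 without Z15303 and 377 of 12889 without Z15408, beside 279 of 12880 with all animals. Within the 3 animals of shared dates the median was −0.035, 13 members were higher and 0 reached an unadjusted p of 0.05. Neutrophil genes moved as well, in the direction of the monocyte genes in Z13076 but against it in Z15228. Of the 14 tested neutrophil genes, 13 (92.9%, beside 49.3% of all features) had a positive fold change, with a median of 0.43 that was 0.12 without Z13076 and 0.67 without Z15228. They changed by −0.69, 1.99, 1.08, −0.56 and 0.42 (mean log2 CPM), 14 of 14 being higher in Z13076 and 3 of 14 in Z15228. The neutrophil summed level was 242 to 684 CPM at week 12 and 397 to 690.0 at week 18. *LTF*, the neutrophil granule protein lactoferrin, had 23.4, 2.65, 6.62, 71.0 and 5.52 CPM at week 12 and 9.06, 50.6, 51.0, 25.2 and 17.3 at week 18, higher in 3 of 5 animals (log2 fold change 1.10, SE 0.59). Its log2 fold change was 0.40 without Z13076, 0.53 without Z15339, 1.73 without Z15228 and 1.83 without Z15303. None of the list's tested members was at 0 in all libraries of a time point. The part of these cells in the monocyte result was not tested.

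**Figure D3:**
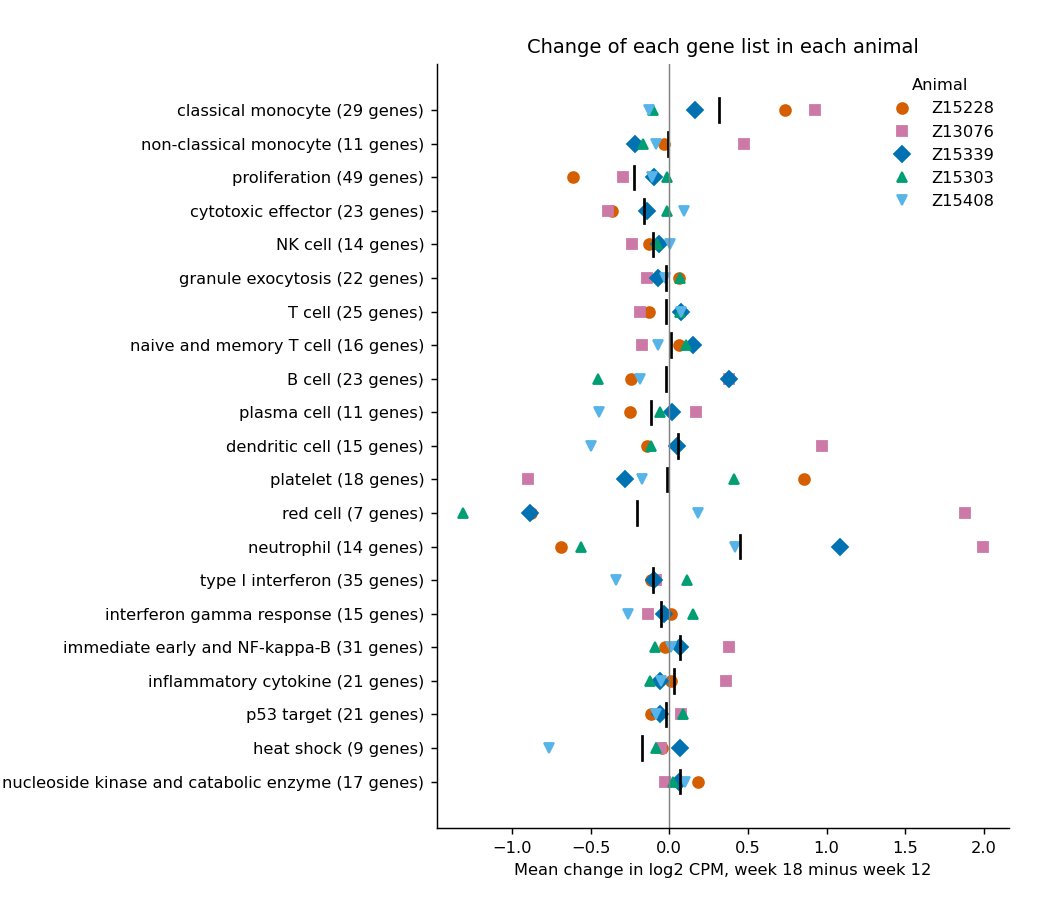
Points give the mean change in log2 CPM, week 18 minus week 12 (x axis), of the tested genes of each of 21 gene lists (y axis) in each animal, and black bars the mean of the 5 animals; points of equal value overlie each other. Classical monocyte genes lie near 0.74 in Z15228 and 0.92 in Z13076 but between −0.13 and 0.16 in the other animals, and the red cell, neutrophil and platelet lists spread the widest.

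Non-classical monocyte genes did not share this pattern. These cells patrol vessel walls and carry the Fc receptor CD16, whose gene *FCGR3A* has no row under that symbol in the table and was not analysed here. Of the 11 members tested (of 18 listed), 7 (63.6%, beside 49.3% of all features) had a positive fold change, the median was 0.015, none had an unadjusted p under 0.05, and 2 were lower in 5 of 5 animals (18.2%, beside 2.87%). The mean changes per animal were −0.033, 0.47, −0.22, −0.17 and −0.084, with only Z13076 above 0. The 2 genes lower in every animal encode complement C1q chains. *C1QB* had 72.6, 33.5, 179, 109 and 34.6 CPM at week 12 and 63.1, 31.5, 105, 101 and 24.0 at week 18 (log2 fold change −0.37, SE 0.21). *C1QC* had 67.8, 32.6, 141, 83.4 and 28.4 CPM at week 12 and 64.4, 25.0, 96.4, 73.6 and 22.5 at week 18 (log2 fold change −0.31, SE 0.17). The groups overlapped widely, and the level of both genes differed more between animals than between time points. *SIGLEC10*, an inhibitory sialic acid receptor, had 52.1, 37.8, 52.2, 49.1 and 52.5 CPM at week 12 and 64.6, 68.3, 47.8, 42.6 and 49.8 at week 18 (log2 fold change 0.15, SE 0.15). Its direction turned to −0.023 when Z13076 was left out.

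Proliferation genes were mostly lower at week 18. Of the 49 tested (of 55 listed), 42 (85.7%, beside 50.7% of all features) had a negative fold change, with a median of −0.22. At an unadjusted p under 0.05, 4 were lower (8.16%, beside 1.01%) and 0 higher, and 5 were lower in 5 of 5 animals (10.2%, beside 2.87%). The mean change per animal was −0.61, −0.30, −0.099, −0.014 and −0.11, below 0 in 5 of 5, −0.23 ± 0.24 (SD, n = 5). The 3 animals of shared dates averaged −0.075 and the other 2 averaged −0.45. In Z15228 5 of the 49 genes were higher at week 18 and in Z13076 14 were, beside 20, 24 and 19 in Z15339, Z15303 and Z15408. The list was thus nearly level in Z15303. Without Z15228 the median was −0.098 and 0 members had an unadjusted p under 0.05, while 1 did without Z15339 and 8 did without Z15303. Of all features tested in these fits, 205 of 12854, 238 of 12870 and 371 of 12878 did, beside 279 of 12880 with all animals. Within the 3 animals of shared dates the median was −0.048, with 1 such member.

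The proliferation marker *MKI67* had 27.1, 19.0, 35.2, 19.9 and 20.3 CPM at week 12 and 19.0, 10.4, 33.9, 19.7 and 18.0 at week 18, against 20.9, 12.9, 37.4, 15.3 and 23.3 before treatment (log2 fold change −0.32, SE 0.15). It was lower in 5 of 5 animals, by a wide margin only in Z15228 and Z13076. *TK1*, the thymidine kinase of S phase, had 8.41, 5.30, 8.94, 5.17 and 8.63 CPM at week 12 and 2.98, 3.78, 7.05, 3.90 and 7.31 at week 18 (log2 fold change −0.57, SE 0.26). *MYBL2*, a transcription factor of the cell cycle, had 19.0, 10.5, 26.9, 8.49 and 15.7 CPM at week 12 and 9.32, 8.79, 20.3, 9.58 and 12.2 at week 18 and was higher only in Z15303 (log2 fold change −0.41, SE 0.19). *ASPM*, a spindle protein, had 4 to 22 counts per library at week 12 and 1 to 8 at week 18, too few for a firm value (log2 fold change −1.16, SE 0.49). *TOP2A*, the topoisomerase of mitotic chromosomes, had 12.6, 6.38, 10.7, 7.01 and 6.62 CPM at week 12 and 7.64, 5.49, 11.6, 3.37 and 6.97 at week 18 (log2 fold change −0.33, SE 0.24) and was lower in 3 of 5 animals. Summed over the 49 genes, the level was 882 to 1112 CPM at week 12 and 782 to 974 at week 18, so the groups overlapped. In Z15303 this sum was higher at week 18 (885 CPM at week 12 and 943 at week 18), and in Z15408 it was nearly level (897 and 890).

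Cytotoxic effector genes were lower in part of the animals. Of the 23 tested (of 32 listed), 20 (87.0%, beside 50.7% of all features) had a negative fold change and the median was −0.20. At an unadjusted p under 0.05, 2 were lower (8.70%, beside 1.01%) and 0 higher, and 3 were lower in 5 of 5 animals (13.04%, beside 2.87%). The mean change was −0.36, −0.39, −0.14, −0.013 and 0.092 in the 5 animals, −0.16 ± 0.21 (SD, n = 5). In Z15228 0 of the 23 genes were higher and in Z13076 3 were, beside 7, 10 and 14 in the others. Within the 3 animals of shared dates the median was 0.017 and 11 members were lower. The median was −0.10 without Z13076 and −0.14 without Z15228. The count at an unadjusted p under 0.05 was 1 without Z13076, 1 without Z15228 and 8 without Z15408. Over all features it was 237 of 12927, 205 of 12854 and 377 of 12889 in these fits, beside 279 of 12880 with all animals. Z15228 and Z13076 thus held the highest monocyte and the lowest cytotoxic changes. CPM are shares of a total, so more of one group of transcripts and less of the other cannot be told apart.

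*GZMA*, which encodes granzyme A, had 75.2, 222, 169, 152 and 77.2 CPM at week 12 and 51.7, 153, 121, 120.1 and 70.3 at week 18, lower in 5 of 5 animals (log2 fold change −0.40, SE 0.15). *EOMES*, a transcription factor of cytotoxic lymphocytes, had 154, 229.6, 152, 82.3 and 154 CPM at week 12 and 119.7, 179, 139, 81.9 and 122 at week 18 (log2 fold change −0.24, SE 0.11). It was level in Z15303. *GNLY*, the granule protein granulysin, had 776, 716, 2406, 725 and 753 CPM at week 12 and 613, 585, 1762, 711 and 700.3 at week 18 and was also lower in 5 of 5 (log2 fold change −0.24, SE 0.16). *GZMB*, granzyme B, had 3266, 4524, 5401, 2415 and 3649.6 CPM at week 12 and 2522, 2740.0, 4003, 2472 and 3239 at week 18 and was lower in 4 of 5 (log2 fold change −0.33, SE 0.18). *PRF1*, the pore protein perforin, had 651, 1090.0, 817, 393 and 660.0 CPM at week 12 and 505, 676, 659, 387 and 777 at week 18 (log2 fold change −0.22, SE 0.17). Z15408 was higher at week 18, and Z15303 was level. *KLRK1*, the activating receptor NKG2D, had 44.3, 40.2, 46.1, 36.3 and 31.6 CPM at week 12 and 38.6, 30.9, 48.0, 20.9 and 30.1 at week 18 (log2 fold change −0.27, SE 0.13). *NKG7*, a granule membrane protein, showed no common direction, with 828, 1031, 890.0, 621 and 763 CPM at week 12 and 761, 654, 797, 688 and 975 at week 18 (log2 fold change −0.054, SE 0.19).

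NK cell genes went both ways. Of the 14 tested (of 18 listed), 10 (71.4%, beside 50.7% of all features) had a negative fold change, with a median of −0.099. Of these genes 3 were lower (21.4%, beside 1.01%) and 1 was higher (7.14%, beside 1.16%) at an unadjusted p under 0.05. In 5 of 5 animals, 4 were lower (28.6%, beside 2.87%) and 1 was higher (7.14%, beside 2.99%). *KLRB1*, the lectin receptor CD161, had 17.5, 25.3, 30.4, 30.6 and 23.4 CPM at week 12 and 9.32, 13.4, 25.9, 24.1 and 14.8 at week 18 (log2 fold change −0.58, SE 0.19), with changes of −0.90 in log2 CPM in both Z15228 and Z13076. *NCAM1*, the adhesion molecule CD56, moved the other way, with 19.0, 42.0, 36.1, 3.51 and 21.5 CPM at week 12 and 28.1, 80.5, 38.8, 5.14 and 24.6 at week 18 (log2 fold change 0.47, SE 0.15). It was higher in 5 of 5 animals, and its level in Z15303 was far below that of the others at both times. In macaques CD56 is also found on monocytes. *KIR2DL4*, a killer cell receptor whose reads may be shared with other KIR genes, had 86.5, 119, 93.0, 44.3 and 76.6 CPM at week 12 and 75.6, 70.7, 61.7, 41.0 and 66.8 at week 18 (log2 fold change −0.38, SE 0.14). The third gene lower at an unadjusted p under 0.05 was *NCR1*, the receptor NKp46 (log2 fold change −0.49). The summed level of the list was 2952 to 3265 CPM at week 12 and 2873 to 3276 at week 18.

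The genes of the granule machinery had no common direction. Of the 22 granule exocytosis genes tested (of 25 listed), 13 (59.1%, beside 49.3% of all features) had a positive and 9 a negative fold change, with a median of 0.037. At an unadjusted p under 0.05, 2 were lower (9.09%, beside 1.01%), *SYTL3* and *RAB27A*, which encodes the Rab GTPase that SYTL3 binds. *RAB27A* had 90.4, 118, 88.9, 60.3 and 92.7 CPM at week 12 and 71.9, 96.3, 79.3, 53.03 and 78.6 at week 18, lower in 5 of 5 animals (log2 fold change −0.24, SE 0.089). Its pre-treatment values were 91.8, 120.4, 84.4, 64.9 and 96.6 CPM, each above the same animal's week 18 value. As *RAB27A* was picked by its week 18 difference, this is not separate support. The SNARE gene *VAMP7* was higher in 5 of 5, with 55.4, 69.0, 53.9, 48.0 and 58.2 CPM at week 12 and 64.2, 70.1, 63.5, 54.1 and 63.7 at week 18 (log2 fold change 0.15, SE 0.10). Its changes were small beside those of *SYTL3*, whose log2 fold change was the lowest of the 22.

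**Figure D4:**
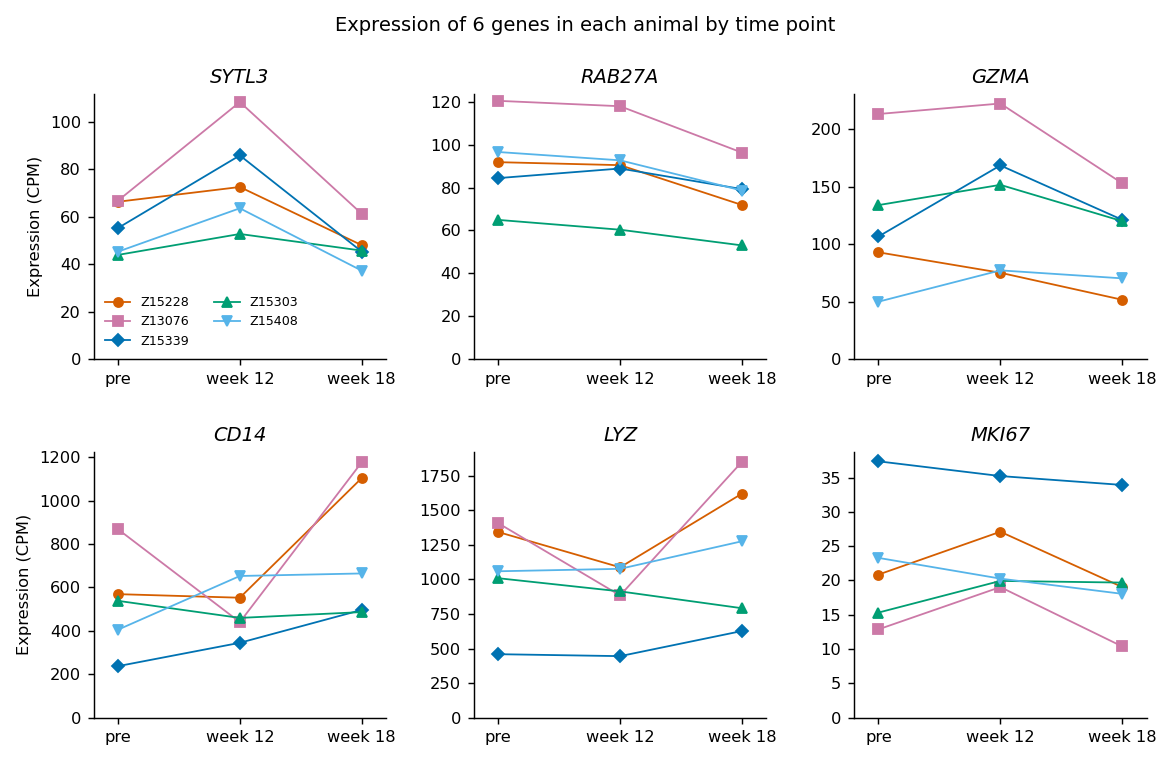
Expression in CPM (y axis, from 0) of 6 genes is plotted for each animal before treatment, at week 12 and at week 18 (x axis), with lines joining the libraries of an animal. *SYTL3* peaked at week 12 in all 5 animals, *RAB27A* and *GZMA* were lower at week 18 than at week 12 in all 5, and *CD14* and *LYZ* differed most between week 12 and week 18 in Z15228 and Z13076. *SYTL3*, *RAB27A* and *GZMA* were picked by their difference between week 12 and week 18.

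T-cell genes showed no common change. Of 25 T-cell genes tested, 11 (44%) had a positive and 14 (56%) a negative fold change, with a median of −0.014. Of 16 naive and memory T-cell genes 9 (56.25%) and 7 (43.75%) did, with a median of 0.024. Of all features 49.3% had a positive and 50.7% a negative fold change. *CD3E*, a chain of the T-cell receptor complex, had 29.1, 12.0, 20.4, 92.4 and 83.0 CPM at week 12 and 18.9, 14.4, 29.1, 107 and 87.8 at week 18 (log2 fold change 0.10, SE 0.15). Z15303 and Z15408 stood above the other 3 animals at both times. *CD4* had 143 to 255 CPM at week 12 and 148 to 282 at week 18 (log2 fold change −0.040, SE 0.11) and *CD8A* had 172 to 437 CPM at week 12 and 165 to 362 at week 18 (log2 fold change −0.066, SE 0.13). The direction of *CD3E* turned without Z15339 and that of *CD4* and *CD8A* without Z13076. *PDCD1*, the inhibitory receptor PD-1, was the 1 T-cell gene at an unadjusted p under 0.05 (4% of the list, beside 1.01%), with 36.4, 52.5, 38.5, 21.8 and 44.3 CPM at week 12 and 23.3, 34.5, 41.5, 19.7 and 31.6 at week 18 (log2 fold change −0.35, SE 0.16).

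B-cell genes went up in some animals and down in others. The mean changes of the 23 tested were −0.25, 0.38, 0.38, −0.45 and −0.18, with 21 and 19 genes higher in Z13076 and Z15339 and 5 to 7 in the other animals, and the median was −0.053. *MS4A1*, which encodes CD20, had 85.6, 19.3, 24.3, 24.4 and 22.0 CPM at week 12 and 79.8, 25.6, 37.5, 10.8 and 17.2 at week 18, after 191, 32.5, 75.3, 42.3 and 44.9 before treatment (log2 fold change −0.059, SE 0.19). Week 18 exceeded week 12 in Z13076 and Z15339 but not in the other 3 animals, and in every animal both values were below the pre-treatment one. *FCRL5*, an Fc receptor-like protein of B cells, had 15.4, 0.964, 3.42, 1.48 and 3.71 CPM at week 12 and 18.6, 3.66, 4.25, 2.84 and 5.98 at week 18, higher in 5 of 5 animals (log2 fold change 0.68, SE 0.23). Z15228 was far above the others at both times. *TCL1A*, a co-activator of the kinase AKT in naive B cells, was the other of the 2 B-cell genes at an unadjusted p under 0.05, 8.70% of the list beside 1.16% (log2 fold change 0.61, higher in 4 of 5). Of 11 plasma cell genes 8 (72.7%, beside 50.7% of all features) were lower, with a median of −0.060. *PRDM1*, which encodes the plasma cell and effector T-cell factor BLIMP-1, had 39.0, 40.9, 33.8, 16.4 and 32.8 CPM at week 12 and 15.5, 22.9, 33.1, 19.3 and 23.0 at week 18 (log2 fold change −0.49, SE 0.19).

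The lists with the widest spread over animals were the red cell, neutrophil, platelet and dendritic cell lists. The SD of their mean changes was 1.29, 1.13, 0.67 and 0.55, beside 0.49 for classical monocyte genes. The cause of this spread was not tested. The 18 platelet genes changed by 0.86, −0.90, −0.28, 0.41 and −0.17, with 18 of 18 higher in Z15228 and in Z15303 and 0 of 18 in Z13076. *PPBP*, a platelet chemokine, had 1518, 3519.8, 3204, 4251 and 1719.9 CPM at week 12 and 3014, 1838, 2764, 4635 and 1229 at week 18 (log2 fold change −0.15, SE 0.24), and *MYL9*, a myosin light chain, had 157, 317, 526, 1019.8 and 159 CPM at week 12 and 239.8, 131, 417, 1145 and 144 at week 18 (log2 fold change −0.24, SE 0.23). The 7 red cell genes tested (of 15 listed) changed by −0.88, 1.88, −0.89, −1.31 and 0.18. *HBB* has no row under that symbol and was not analysed here, and per the study's methods the PBMCs had been treated with a lysis buffer for red cells. *HEMGN*, a nuclear protein of red cell precursors, had 15.6, 24.0, 7.62, 14.4 and 3.01 CPM at week 12 and 12.3, 17.1, 8.62, 9.93 and 1.44 at week 18 (log2 fold change −0.38, SE 0.25). *CSF3R*, the receptor of the neutrophil growth factor G-CSF, which monocytes also express, had 128, 126, 131, 132 and 184 CPM at week 12 and 259, 339.9, 138, 129 and 206 at week 18 (log2 fold change 0.55, SE 0.17). It was higher in Z15228 and Z13076 above all. Dendritic cell genes changed by −0.14, 0.97, 0.050, −0.12 and −0.50, with *CD1C*, a lipid-presenting molecule, at 105, 58.8, 51.4, 36.3 and 97.9 CPM at week 12 and 122, 94.3, 81.7, 30.5 and 105 at week 18 (log2 fold change 0.30, SE 0.13). In Z13076 the monocyte, dendritic cell, neutrophil and red cell lists were all higher at week 18 and the platelet list lower.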

How the data were processed

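The authors made the libraries from PBMC total RNA with the SMART-Seq and Nextera XT kits, mapped their reads by STAR 2.7.9a to the *M. nemestrina* genome with Ensembl release 95, and deposited the raw read counts per feature, not normalized or filtered. Whether reads were counted by strand was not stated, so overlapping genes cannot be told apart. Amplified reads carry no molecular identifiers.

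Counts were analysed in R 4.3.3 with edgeR 4.0.16: TMM scaling, filterByExpr with a minimum count of 10, and the quasi-likelihood F test on all 15 libraries with time point and animal as terms, for the contrast of week 18 minus week 12. P-values were adjusted by the Benjamini-Hochberg method over 12880 features. The SE was taken as the size of the log2 fold change over the root of its F statistic, and log2 CPM used a prior count of 2. DESeq2 1.42.0 and limma 3.58.1 served as alternatives. The scripts were tested on simulated data. The labels give the animal, so the libraries were paired. The same-animal correlation of deviations from the time point means was 0.529 to 0.683 across genes, against −0.326 to 0.0228 between animals. Subtracting those means by itself draws the between-animal values below 0, so their sign is not separate support. The biological coefficient of variation was 16.9% with the block and 29.3% without it.

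Gene lists (22, sharing no gene) were described by counts, medians and mean changes per animal, with no set test. The lists and the comparison were chosen with earlier results of these data known. Named genes were the 8 symbols with the smallest p in each direction among genes uniform in 5 of 5 animals, the 3 members with the smallest p of 6 main lists and 1 of each other list, fixed markers, and symbols called by edgeR or DESeq2. A gene that the rule picked is not reported here. Genes named beyond these were chosen after their values were seen. The 5 libraries of a group came from separate animals. Depth was 5610597 to 10379572 counts per library, so genes of a few counts have a wide error. Alternatives were other filters, scalings and tests, no block, 10 libraries only, leaving out each animal, and the animals of shared dates only.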

Additional observations from a re-analysis of the deposited data

Results flagged for a closer look

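In groups of 5 libraries, a highest or lowest value was set apart when its gap to the nearest other value was a large part of the whole range, by Dixon's criterion. For independent, normally distributed values chance does so in about 1 of 20 groups. Here CPM were used without logs, part of the genes were chosen by their values, and the same genes were examined at both times. That rate therefore need not hold. Of the 184 groups examined, 16 were set apart.

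Z15228 stood above the other animals for 3 genes. In *FCRL5* its CPM was 15.4 at week 12 and 18.6 at week 18, in *MS4A1* it was 85.6 at week 12, and in *CHIT1* it was 25.1 at week 18. Z13076 stood apart in *SIGLEC10*, lowest at week 12 with 37.8 CPM, in *TCN2*, highest at week 18 with 118 CPM, and in the red cell list, highest at week 18 with a summed 738 CPM.

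Z15339 was the highest in *GNLY*, with 2406 CPM at week 12 and 1762 at week 18, and in the plasma cell list, with summed levels of 1047 and 1025 CPM. Z15303 was the highest in *MMP8*, a neutrophil collagenase, with 1.66 CPM at week 12, in *MYL9* with 1145 CPM at week 18, and in the non-classical monocyte list with a summed 2408 CPM at week 18. Z15408 was the highest in *CSF3R* with 184 CPM at week 12 and in *FOS* with 1521 CPM at week 18. In *FCRL5*, *GNLY* and the plasma cell list the same animal stood apart at both times. The causes were not tested.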

How the results depend on the processing

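The count of features at an adjusted p of 0.05 was 0 in edgeR and became 5 with no filter (*APBB2*, *LTF*, *CD14*, *SYTL3* and *ANPEP*), 8 in DESeq2 and 1 in DESeq2 on the filtered features, an alternative added after seeing the data. It was 0 without the replicate block, where 65 features instead of 279 had an unadjusted p under 0.05. That count was 504 with 10 libraries only and 511 with no filter. With no filter *LTF* had an edgeR adjusted p of 4.41e-06, although it was lower at week 18 in 2 of 5 animals. Its SE was 0.17 in that fit, beside 0.59 in the main fit. A call with no filter thus need not mean a direction shared by the animals. Over 4 animals, 691 to 805 features were uniformly higher and 660 to 797 uniformly lower, since fewer animals must share a direction.

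For the lists, member counts at an unadjusted p under 0.05 were 1 (monocyte), 1 (proliferation) and 0 (cytotoxic) without the block for animals, and 0, 1 and 1 in the animals of shared dates. The monocyte count was 17 with no filter, the proliferation count 2 in limma-voom, and the cytotoxic count 8 with 10 libraries only. Leaving out each animal gave 3 to 12, 0 to 8 and 1 to 8. These counts moved along with those over all features. The latter were 65 of 12880 without the block, 511 of 20732 with no filter and 504 with 10 libraries only. They were 205 to 377 on leaving out each animal, beside 279 of 12880 in the main fit. In the animals of shared dates 13 monocyte genes were higher and 11 cytotoxic genes were lower, beside 27 and 20 in the main fit. The medians in these animals were −0.035 (monocyte), −0.048 (proliferation) and 0.017 (cytotoxic). A minimum count of 50 left 23 lower proliferation genes, as fewer were tested.

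With each animal left out in turn, the log2 fold change reversed within the ranges −0.023 to 0.22 for *SIGLEC10*, −0.40 to 0.043 for *MYL9*, −0.18 to 0.068 for *NKG7*, −0.090 to 0.033 for *CD4*, −0.18 to 0.011 for *CD8A* and −0.37 to 0.074 for *PPBP*, each without Z13076. It did so within −0.0052 to 0.26 for *CD3E* without Z15339, and within −0.24 to 0.15 for *MS4A1* without Z15303 (0.15) or Z15408 (0.016). In the animals of shared dates it reversed for *SIGLEC10* (−0.13), *S100A8* (−0.16), *S100A9* (−0.18), *NKG7* (0.13), *CD4* (0.099) and *CD8A* (0.11). The cause was not tested. The other 61 of 71 genes recomputed kept their direction under the 12 to 15 alternatives that gave each a value.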

Other observations

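Genes of cellular responses were described in the same way. Of 35 type I interferon genes tested, 30 (85.7%, beside 50.7% of all features) had a negative fold change, with a median of −0.13. However, none had an unadjusted p under 0.05 by edgeR. In 5 of 5 animals 1 was lower, 2.86% of the list beside 2.87% of all features. None passed the adjusted threshold. The mean changes per animal were −0.12, −0.083, −0.095, 0.11 and −0.34, lowest in Z15408 and above 0 in Z15303. The summed level was 2384 to 5638 CPM before treatment, 2442 to 3257 at week 12 and 2342 to 2823 at week 18, the highest value being that of Z15303 before treatment. *HERC5*, an enzyme that attaches the interferon-induced modifier ISG15 to proteins, had 7.89, 8.43, 3.64, 10.3 and 11.1 CPM at week 12 and 4.66, 6.35, 5.15, 7.80 and 5.87 at week 18 (log2 fold change −0.47, SE 0.30). *IFIT1* has no row under that symbol and was not analysed here. Of 15 genes of the interferon gamma response, 10 (66.7%, beside 50.7% of all features) were lower, with a median of −0.055. *FGL2*, a secreted and membrane-bound fibrinogen-like protein, had 219 to 349 CPM at week 12 and 246 to 490.1 at week 18 (log2 fold change 0.23, SE 0.16).

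Of 31 immediate early and NF-kappa-B genes, 21 (67.7%, beside 49.3% of all features) had a positive fold change (median 0.067). At an unadjusted p under 0.05, 2 were higher (6.45%, beside 1.16%) and 1 was lower (3.23%, beside 1.01%). *FOS*, a subunit of the transcription factor AP-1, had 840.2, 911, 789, 895 and 914 CPM at week 12 and 962, 1002, 1024, 990.1 and 1521 at week 18 (log2 fold change 0.32, SE 0.11). It was 1 of the 7 features whose week 18 values were all above the week 12 values. Before treatment *FOS* was at 932, 892, 879, 909.7 and 1206 CPM. *ATF3*, a stress-induced transcription factor, was also higher in 5 of 5 animals (0.42), and *NR4A2*, an orphan nuclear receptor, was lower in 4 of 5 (−0.41, both log2 fold changes). Further symbols without overlap were *COA7*, *RNF138*, *OSGIN2*, *RUSC2* and *CLIC1* above, and *CNNM3*, *ZNF383*, *YPEL1*, *PRKDC* and *ZNF185* below.

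Medians of the other response lists were 0.012 for 21 inflammatory cytokine genes, −0.025 for 21 p53 targets, −0.15 for 9 heat shock genes and 0.029 for 17 nucleoside kinases and catabolic enzymes, and none of their members had an unadjusted p under 0.05. Of the heat shock genes 7 (77.8%, beside 50.7% of all features) had a negative fold change. They were lowest in Z15408, with mean changes of −0.046, −0.050, 0.069, −0.085 and −0.76. *HSPB1*, a small heat shock protein, had 4 to 25 counts per library at week 12 and 4 to 11 at week 18 (log2 fold change −0.69, SE 0.45). *IL18*, an inflammasome cytokine, had 2.21 to 17.0 CPM at week 12 and 2.31 to 8.41 at week 18 (log2 fold change −0.44, SE 0.23). *CDKN1A*, the p53 target p21, had 264 to 354 CPM at week 12 and 303 to 410.5 at week 18 (log2 fold change 0.13, SE 0.13), and *BBC3*, the pro-apoptotic protein PUMA, was higher in 5 of 5 animals with 19.1 to 29.7 CPM at week 12 and 23.3 to 30.3 at week 18 (log2 fold change 0.20, SE 0.14). *TK2*, the mitochondrial kinase of pyrimidine nucleosides, had 46.6 to 74.7 CPM at week 12 and 66.8 to 85.9 at week 18 (log2 fold change 0.23, SE 0.12). None of the genes of the mitochondrial genome was listed under a symbol.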
